A study of Mus musculus with 62 samples.

Results

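The genes of fatty acid oxidation and lipid use were followed in mouse hearts that lack RPL3L, a striated muscle paralog of the ribosomal protein RPL3, and in C2C12 myoblasts that carry extra RPL3 or RPL3L. Members were taken by symbol from transcripts matched to GENCODE M21 identifiers, as every gene whose name starts with Acad, Acaa, Acot, Acsl, Acsm, Acss, Hadh, Cpt1, Cpt2, Ech1, Echs1, Echdc, Eci, Etf, Fabp, Crat, Crot or Decr. This gave 38 of the 10476 genes of the count table, each followed by the 1 of its transcripts with the highest summed RNA-seq count. All 23662 matched transcripts of the table lay on the plus strand of the genome, and 35 of the 73 coding genes with such names, all of them on the minus strand, were not analysed here. The genes not analysed include Acadm, Acadl, Acadvl, Cpt1b, Cpt2, Hadha and Etfa, so that the pathway is seen only in part.

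Hearts came from male C57BL/6J mice at 10 weeks of age, either wild type (WT heart) or homozygous for a CRISPR-Cas9 deletion of the second exon of Rpl3l that shifts the reading frame (Rpl3l KO heart), with 4 mice of each genotype in RNA-seq, in Ribo-seq and in Disome-seq. C2C12 is a mouse myoblast line, here infected with a retrovirus and selected with puromycin, and carried an empty vector (Control), RPL3 cDNA (RPL3 OE) or RPL3L cDNA (RPL3L OE). There were 3 cultures of each in RNA-seq and in Ribo-seq. They were kept at low confluence, as undifferentiated myoblasts, and retain their own RPL3. RNA-seq counts poly(A) RNA, Ribo-seq counts the fragments that 1 ribosome protects from nuclease (footprints), and Disome-seq counts the longer fragments protected by a pair of stacked ribosomes (disomes).

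Fatty acid binding proteins carry fatty acids through the cytosol, and acyl-CoA synthetases join them to coenzyme A. Carnitine palmitoyltransferases pass long acyl chains towards the mitochondrial matrix, where acyl-CoA dehydrogenases, hydratases, hydroxyacyl-CoA dehydrogenases and thiolases shorten them in repeated rounds of beta-oxidation. The electron transfer flavoprotein takes the electrons of the dehydrogenases to the respiratory chain, and acyl-CoA thioesterases split acyl-CoA back into free fatty acid and coenzyme A. The adult heart draws most of its ATP from this pathway, whereas dividing myoblasts depend more on glucose. By role, the members were 5 fatty acid binding proteins, 10 acyl-CoA synthetases, 1 carnitine palmitoyltransferase (Cpt1a), 3 acyl-CoA dehydrogenases, 4 hydratases and isomerases, 3 thiolases with the trifunctional protein subunit Hadhb counted among them, 3 genes of the electron transfer flavoprotein and its factors, and 9 thioesterases.

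Acot1 to Acot6, the thioesterases on which the knockout comparison turned, lie side by side on chromosome 12 and share stretches of coding sequence. A stretch of 106 bases from the first coding exon of each is printed here (GRCm38, plus strand, 5′ to 3′), with capitals at bases that differ from Acot2, to show how far a footprint can tell the genes apart.
Acot1 (chr12:84009704-84009809): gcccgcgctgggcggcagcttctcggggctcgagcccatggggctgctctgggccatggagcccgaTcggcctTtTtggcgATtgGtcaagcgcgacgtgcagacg
Acot2 (chr12:83988219-83988324): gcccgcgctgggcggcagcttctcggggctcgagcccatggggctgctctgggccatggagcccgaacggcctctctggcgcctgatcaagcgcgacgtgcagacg
Acot3 (chr12:84053679-84053784): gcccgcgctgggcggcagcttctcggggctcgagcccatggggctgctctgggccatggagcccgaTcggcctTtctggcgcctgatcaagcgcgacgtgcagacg
Acot4 (chr12:84038705-84038810): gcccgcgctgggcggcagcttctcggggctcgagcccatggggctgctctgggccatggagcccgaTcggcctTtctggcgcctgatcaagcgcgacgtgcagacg
Acot5 (chr12:84069661-84069766): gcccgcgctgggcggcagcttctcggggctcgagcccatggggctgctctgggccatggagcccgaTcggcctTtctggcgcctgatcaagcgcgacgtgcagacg
Acot6 (chr12:84101166-84101271): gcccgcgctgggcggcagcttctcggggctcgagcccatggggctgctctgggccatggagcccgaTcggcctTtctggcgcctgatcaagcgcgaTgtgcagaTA
The first 66 bases are the same in all 6 genes, and over the whole stretch Acot3, Acot4 and Acot5 each differ from Acot2 at 2 bases, Acot6 at 5 and Acot1 at 6. Of the windows of 28 bases, a footprint's length, 70.6% of those in Acot1 and 57.6% of those in Acot2 also occur in another of the 6. The share was 32.5% in Acot3, 26.9% in Acot4, 38.2% in Acot5 and 24.9% in Acot6. None of the windows (0%) occurred in a gene of the table whose name does not start with Acot. Acot7, Acot9 and Acot12 were not searched, nor were genes outside the table. The study's counting allowed a read to map to several places, so that part of a count of 1 Acot gene can come from its neighbours.

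Promoters from the RefSeq table of GRCm38.p6, which run from 250 bases before to 50 bases after the start, were found for 34 of the 38 members. They were read for AGGTCA on both strands, the core element of the nuclear receptors that act on this pathway, such as the PPARs and ERRs. AGGTCA was present in 12 of the 42 member promoters (28.6%) and in 16.3% of the 32851 promoters of all genes. Counted by gene, it was in 10 of 34 members (29.4%) and in 18.1% of all 27025 genes, since Acot3 and Acot5 each enter with overlapping windows. It was in 5 of the 25 promoters (20.0%) of members higher in WT heart than in C2C12 and in 0 of 5 of members lower there, so that the share in the former was near that of all promoters. Acot12, Acsm1, Fabp1, Fabp7, Cpt1a, Acsl6 and Acot3 to Acot5 were among those that hold it, and of these Cpt1a, Acsl6 and Acot3 were higher in WT heart. TCAAGGTCA, which contains it, was in 1 of 42 (2.38%) against 0.423%, and AGGTCANAGGTCA was in 0 of 42 against 0.0396%. Capitals mark AGGTCA or its reverse complement in the promoters of Fabp3, the member with the highest heart mRNA, and of 2 thioesterases of the cluster.
Fabp3 promoter (chr4:130308488-130308787): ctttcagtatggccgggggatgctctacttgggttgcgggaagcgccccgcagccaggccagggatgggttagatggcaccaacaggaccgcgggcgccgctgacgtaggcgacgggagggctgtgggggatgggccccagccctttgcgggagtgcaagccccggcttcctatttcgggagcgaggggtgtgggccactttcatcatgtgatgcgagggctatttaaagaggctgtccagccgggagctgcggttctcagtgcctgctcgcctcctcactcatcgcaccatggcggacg
Acot4 promoter (chr12:84038129-84038428): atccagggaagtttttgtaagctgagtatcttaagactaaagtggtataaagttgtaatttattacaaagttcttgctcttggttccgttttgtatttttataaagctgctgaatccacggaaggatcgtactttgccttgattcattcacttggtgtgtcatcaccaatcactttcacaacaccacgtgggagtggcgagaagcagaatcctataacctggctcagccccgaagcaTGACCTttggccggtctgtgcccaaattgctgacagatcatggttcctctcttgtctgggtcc
Acot5 promoter (chr12:84069074-84069373): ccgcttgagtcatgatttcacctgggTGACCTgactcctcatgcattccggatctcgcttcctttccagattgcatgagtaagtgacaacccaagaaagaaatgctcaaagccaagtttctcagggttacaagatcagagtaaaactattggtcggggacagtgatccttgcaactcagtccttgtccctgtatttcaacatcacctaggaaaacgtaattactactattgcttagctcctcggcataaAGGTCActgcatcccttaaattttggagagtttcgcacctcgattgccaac
Fabp3 held no match in this window, Acot4 held 1 and Acot5 held 2. A match is a string of letters and not a site at which a factor was shown to bind.

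Total counts ran from 3594696 to 22425296 in heart RNA-seq, from 1606700 to 3192090 in heart Ribo-seq, from 39016 to 175747 per mouse in Disome-seq, from 7647102 to 29746110 in C2C12 RNA-seq and from 3167026 to 6093268 in C2C12 Ribo-seq. The members took 1.34 to 1.46% of the counts of WT heart RNA-seq and 0.129 to 0.132% of those of Control C2C12 RNA-seq. Rpl3l mRNA stood at 369 to 541 CPM (counts per 1000000 of a library size scaled by TMM) in WT hearts and at 24.4 to 40.4 CPM in Rpl3l KO hearts, and its mean was 0.362 CPM in Control and 2017 CPM in RPL3L OE C2C12. Of the cardiomyocyte markers, 5 of 10 were in the table and all 5 were above the floor of 3 counts in the hearts, and so were 4 of 6 myoblast markers in C2C12. The lists were not exclusive. In Control C2C12 RNA-seq, 3 cardiomyocyte markers were above the floor, with a sum of 225 to 232 CPM against 34414 to 46505 CPM in WT hearts. In WT heart RNA-seq, 1 myoblast marker, Des, was above it. The myoblast sum was 1616 to 1810 CPM there and 485 to 499 CPM in Control C2C12. Markers of airway cells summed to between 0.231 and 1540 CPM of plain library totals in heart RNA-seq, and those of adipocytes (7 of 10 in the table) to between 61.5 and 1003 CPM, with KO hearts 1 and 3 highest in both. In heart Ribo-seq the airway sum was 2222 CPM in KO heart 1 and 3050 CPM in KO heart 2 but 0.622 CPM in KO heart 3. The numbers 2 and 3 of the KO hearts therefore go against each other between RNA-seq and Ribo-seq, and the fits reported here do not pair libraries by number. Acsm3, a medium-chain synthetase, moved with these markers, at 4.40, 0.32, 12.6 and 1.08 CPM in KO RNA-seq, and at 7.25, 13.6, 0.00 and 1.85 CPM in KO Ribo-seq. The part of airway and adipose RNA in the other members was not tested.

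WT heart and Control C2C12 were compared first, to place each member's level in the adult organ and in the myoblast line. Most members were far higher in the heart, led by Fabp3, the heart-type fatty acid binding protein, whereas the long-chain synthetases Acsl3 and Acsl5, the thioesterase Acot9 and Fabp5 were higher in C2C12. Of 29 members tested, 22 were higher in the heart and 5 lower (edgeR quasi-likelihood test, adjusted p under 0.05), against 41.2% and 41% of all genes tested in these directions and 82.1% in both. The members' median log2 fold change was 3.20 and that of all genes −0.025. It was also 3.20 with the 3 members at the floor in 1 group (Acot3, Acsm2 and Acsm5) set to their bounds. These 3 passed the count filter only through the group where they are high. The direction of their calls was thus fixed by the filter, and they add no support to the counts of 22 and 5. With library totals in place of TMM, the median of all genes moved from −0.025 to −0.78 and that of the members to 2.44, with 19 members higher and 7 lower. Tissue, handling and library batch cannot be told apart in this comparison, nor can fewer cells of a type and less RNA per cell in any of these bulk samples.

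**Figure D1:**
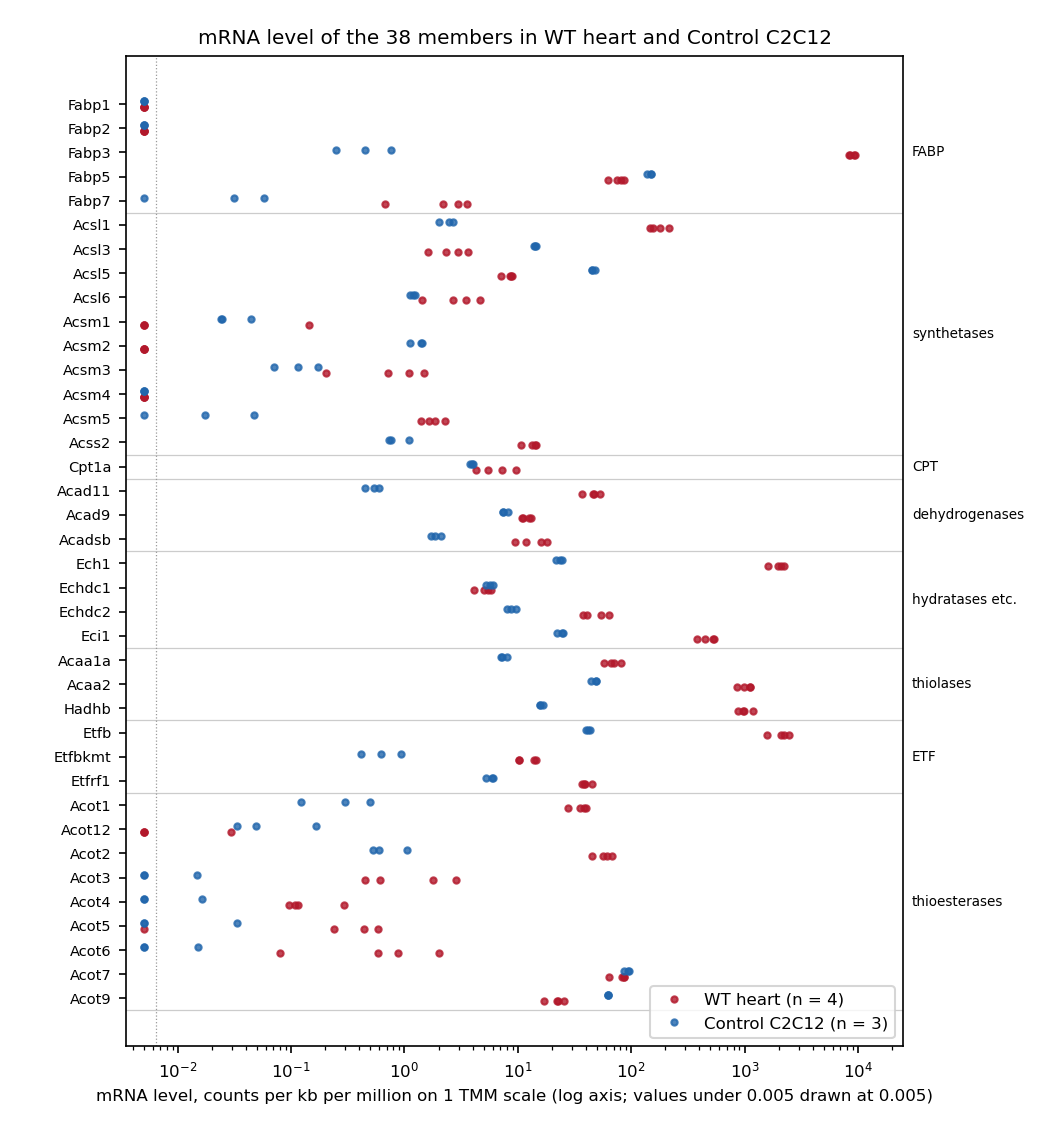
mRNA level of each of the 38 members, in CPM per kb on 1 TMM scale (log axis), in 4 WT hearts (red) and 3 Control C2C12 cultures (blue), 1 point per sample, grouped by role. Fabp3, Ech1, Etfb, Hadhb and Acaa2 stand highest in the heart and far from C2C12, while Fabp5, Acsl3, Acsl5 and Acot9 lie higher in C2C12.

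Levels between genes are given as RPKM, here CPM per kilobase of transcript, on 1 TMM scale of the 7 RNA-seq libraries. Fabp3 mRNA (chr4:130308595-130315463) stood at 9299, 9342, 8375 and 8562 RPKM in the WT hearts and at 0.451, 0.25 and 0.767 RPKM in Control C2C12. The WT hearts lay close together, and every Control culture was near the lower end of what these libraries can count. The log2 fold change was 13.96 (SE 0.23, adjusted p = 4.2e-14). Fabp3 alone made up 54.9% of the members' summed RPKM in the heart, which was 16197. Fabp5, the epidermal-type binding protein, was at 75.6, 81.8, 62.8 and 86.7 RPKM in the hearts and at 139, 149 and 150 RPKM in Control C2C12, with no overlap (log2 fold change −0.92, SE 0.11, adjusted p = 4.7e-06). Fabp1 and Fabp2, the liver and intestinal forms, had 0 counts in both, which allows up to 1.95 and 1.12 RPKM in the shallowest heart library. Fabp7, the brain form, was at 2.36 ± 1.26 RPKM (SD, n = 4) in the heart and was not tested.

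Among the synthetases, Acsl1, the main long-chain enzyme of heart and fat, was at 180, 148, 217 and 156 RPKM in the heart and at 2.01, 2.46 and 2.66 RPKM in C2C12 (log2 fold change 6.19, SE 0.18). Acsl5, which serves lipid storage as much as oxidation in other tissues, ran the other way, at 7.13, 8.50, 8.79 and 8.98 RPKM against 45.3, 45.6 and 47.9 RPKM (−2.45, SE 0.11). Acsl3, an enzyme of the endoplasmic reticulum and lipid droplets, was at 2.64 ± 0.875 RPKM (SD, n = 4) in the heart and 14.2 ± 0.391 RPKM (SD, n = 3) in C2C12 (−2.41, SE 0.18). The leading synthetase thus differed, Acsl1 in the heart and Acsl5 in C2C12. Acss2, which activates acetate, Acsl6 and the medium-chain enzyme Acsm3 were higher in the heart, with log2 fold changes of 3.89, 1.40 and 2.96, of which that of Acsl6 did not pass with library totals (0.66, adjusted p = 0.060). Acsm3 stood at only 0.874 ± 0.543 RPKM (SD, n = 4) in WT hearts and moved with airway and adipocyte markers in KO hearts. The part of such cells in its heart level was not tested. Acsm5 was at 1.80 ± 0.383 RPKM (SD, n = 4) in the heart and at or under 3 counts in each Control library, at least 34.7-fold higher in the heart. Acsm2 had 0 counts in each WT heart and 1.32 ± 0.171 RPKM (SD, n = 3) in C2C12, at least 2.50-fold higher in C2C12. Acsm4 had 0 counts in both, and Acsm1 was under 0.15 RPKM in every sample of either source.

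Cpt1a, the outer membrane carnitine palmitoyltransferase of liver and many other tissues, differed little, at 7.26, 4.28, 9.67 and 5.47 RPKM in the heart and 4.00, 3.96 and 3.80 RPKM in C2C12 (log2 fold change 0.76, SE 0.21, adjusted p = 0.0042). Every WT heart was above every Control culture, though WT heart 2 only just. With library totals in place of TMM the difference was 0.02 (adjusted p = 0.95).

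Within the beta-oxidation spiral, all 3 dehydrogenases passed. Acad11, which takes very long and hydroxylated chains, was at 45.7 ± 6.59 RPKM (SD, n = 4) in the heart and 0.527 ± 0.0736 RPKM (SD, n = 3) in C2C12 (log2 fold change 6.41, SE 0.17). Acadsb, for short branched chains, was higher by 2.86. Acad9, also an assembly factor of respiratory complex I, was higher by 0.62 but at −0.13 (adjusted p = 0.33) with library totals. Ech1, a dienoyl-CoA isomerase, was at 2106, 2252, 1601 and 1992 RPKM in the heart and at 23.5, 21.7 and 24.6 RPKM in C2C12 (6.41, SE 0.15). In C2C12 Ech1 and Eci1, the enoyl-CoA isomerase, overlapped, at 23.3 ± 1.44 and 23.8 ± 1.45 RPKM (SD, n = 3), whereas in the heart Ech1 was above Eci1, which stood at 474 ± 74.1 RPKM (SD, n = 4). Echdc2 was higher in the heart by 2.46, and Echdc1, a repair enzyme for ethylmalonyl-CoA, was not shown to differ (−0.15, SE 0.14, adjusted p = 0.35), though it was lower by −0.91 with library totals.

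Hadhb, the thiolase subunit of the trifunctional protein, was at 1182, 995, 970 and 877 RPKM in the heart and at 15.8, 16.7 and 15.7 RPKM in C2C12 (log2 fold change 5.97, SE 0.14). Acaa2, the matrix thiolase, was at 1114, 1117, 856 and 982 RPKM and at 44.1, 48.6 and 48.9 RPKM (4.43, SE 0.13). The 2 thiolases of the matrix overlapped in the heart but not in C2C12, where Acaa2 was the higher. Acaa1a, the peroxisomal thiolase, was higher in the heart by 3.20 (SE 0.14).

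Etfb, the beta subunit of the electron transfer flavoprotein, was at 2215, 2451, 1585 and 2080 RPKM in the heart and at 42.9, 39.7 and 41.2 RPKM in C2C12 (log2 fold change 5.66, SE 0.16). Its lysine methyltransferase Etfbkmt and the regulatory factor Etfrf1 were also higher in the heart, by 4.17 and 2.80, but stood at only 12.2 ± 2.31 and 40.05 ± 3.77 RPKM (SD, n = 4). Fabp3, Etfb, Ech1, Acaa2 and Hadhb together made up 92.5% of the members' summed RPKM in the heart. The 5 leading members of C2C12, Fabp5, Acot7, Acot9, Acaa2 and Acsl5, made up 70.0% of a sum of 562 RPKM.

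Thioesterases were split. Acot2, the mitochondrial form, was at 61.7, 56.0, 68.1 and 44.7 RPKM in the heart and at 0.528, 1.05 and 0.598 RPKM in C2C12 (log2 fold change 6.34, SE 0.23). Acot1, its cytosolic neighbour, was higher by 6.84 (SE 0.26), and Acot3 was at least 31.6-fold higher. Acot7, a cytosolic form known from brain, had the highest mean of the role in both sources and was not shown to differ, at 86.9, 85.7, 63.7 and 83.5 RPKM against 91.3 ± 4.73 RPKM (SD, n = 3) in C2C12 (−0.19, SE 0.12, adjusted p = 0.14), though it was lower by −0.96 with library totals. The ranges overlapped, from 63.7 to 86.9 RPKM in the hearts and from 85.96 RPKM upwards in C2C12. In the heart the ranges of Acot7 and Acot2 overlapped too, and in WT heart 3 Acot2 was the higher of the 2. Acot9, a mitochondrial form, was at 21.8 ± 3.44 RPKM (SD, n = 4) in the heart and 62.5 ± 0.593 RPKM (SD, n = 3) in C2C12 (−1.52, SE 0.12). Acot4, Acot5, Acot6 and Acot12 were under 1 RPKM on average in both.

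Translation efficiency (TE), the footprint level relative to the mRNA level, was then compared between the same sources. Both levels are scaled within their assay, so that a TE difference is relative to all genes and not absolute. On this scale the most abundant oxidation mRNAs of the heart had fewer footprints per mRNA there than in C2C12, and several synthetases had more. Of 27 members tested, 6 were higher in the heart and 10 lower, against 20.2% and 28.3% of all genes and 48.4% in both directions. At an unadjusted p under 0.05 in edgeR there were 59.3% of the members and 54.5% of all genes. The members' shares were thus not far from the background. The median was −0.47 for the members and −0.13 for all genes on the log2 scale. With library totals, 9 were higher and 10 lower, and the median of all genes moved to 0.25.

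All 3 thiolases fell in TE, Hadhb by 0.84 (SE 0.14), Acaa1a by 0.86 (SE 0.18) and Acaa2 by 0.67 (SE 0.14) on the log2 scale. Etfb footprints stood at 1343, 1465, 1443 and 1532 RPKM in the heart and at 90.0, 95.5 and 91.7 RPKM in C2C12. Etfb footprints were thus higher in every heart, but by less than its mRNA, and its TE difference was −1.72 (SE 0.16, adjusted p = 9.1e-08). Acot7, whose mRNA difference did not pass with TMM but did with library totals, was lower in heart footprints, at 54.1, 48.4, 42.7 and 51.3 RPKM in the heart against 184, 185 and 173 RPKM in C2C12, with a TE difference of −1.71 (SE 0.15). Ech1 (−1.18), Echdc2 (−1.15), Fabp5 (−0.88) and Eci1 (−0.84) were lower as well. Fabp3 had a TE difference of −1.96 (SE 0.60, adjusted p = 0.011), which rests on 1 to 6 footprints in each Control library and was not called without Control 1 (adjusted p = 0.16) or Control 2 (adjusted p = 0.061, in a range of 0.0005 to 0.16 over all alternatives).

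Members with more footprints per mRNA in the heart were Acsl6 (1.72, SE 0.43), Acadsb (0.97, SE 0.24), Echdc1 (0.77, SE 0.17), Acsl3 (0.72, SE 0.24), Acsl1 (0.65, SE 0.20) and Cpt1a (0.61, SE 0.24). Acsl1 footprints stood at 410, 424, 457 and 452 RPKM in the heart and at 3.21, 3.77 and 4.24 RPKM in C2C12. Acsl1 was thus higher in both mRNA and TE, whereas Acsl3 was lower in mRNA and higher in TE. The calls on Cpt1a and Acsl3 were lost without any 1 of several replicate numbers, left out in RNA-seq and Ribo-seq together. The former was lost without WT 1, WT 2, WT 4 or any Control, the latter without WT 3, Control 2 or Control 3. With Rpl3l KO hearts in place of WT hearts, Echdc1 (0.33, adjusted p = 0.21) and Acsl3 (0.50, adjusted p = 0.20) were not called in edgeR. Cpt1a was not called in DESeq2 (adjusted p = 0.066).

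The question of the study in the heart is what loss of RPL3L changes, and mRNA was compared first. No member tested was shown to differ between Rpl3l KO and WT hearts in mRNA. Of 30 members tested, 0 passed in edgeR and 0 in DESeq2, and 0 had an unadjusted p under 0.05, against 0.0159% of all genes that passed. The members' median log2 fold change was 0.03 and that of all genes 0.01. Fabp3 mRNA was at 6081, 6126, 5486 and 5573 CPM in the WT hearts and at 5286, 6966, 4955 and 5104 CPM in the KO hearts. The KO hearts spread on both sides of the WT hearts, and the log2 fold change was −0.06, with a 95% interval from −0.32 to 0.20. For Hadhb the interval ran from −0.28 to 0.19, for Acsl1 from −0.20 to 0.34 and for Etfb from −0.31 to 0.25.

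The 3 members with the smallest p in mRNA were Acss2, Acad9 and Etfrf1. Acss2 was at 32.9, 24.7, 31.1 and 33.8 CPM in WT and 42.1, 32.0, 37.4 and 39.4 CPM in KO hearts, overlapping only through KO heart 2 (log2 fold change 0.29, SE 0.15). Acad9 was at 41.2, 34.2, 39.4 and 34.4 CPM in WT and 47.8, 43.0, 42.7 and 42.3 CPM in KO hearts (0.24, SE 0.13). Acad9 did not overlap between the genotypes, but its adjusted p from edgeR was 0.999, and that of no member was under 0.99. The share of all genes without overlap in mRNA was not counted.

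Footprints were compared next, as a measure of ribosomes on each mRNA. Acot4, a peroxisomal succinyl-CoA thioesterase, and Acot6 of the same cluster rose in Rpl3l KO hearts by about the same measure, and the other members of the cluster stood between them and no change. Of 31 members tested, 2 were higher and 0 lower, against 0.465% of all genes that were higher and 0.67% in both directions, and 7 (22.6%) had an unadjusted p under 0.05, against 17.0% of all genes. The median log2 fold change was 0.03 for the members and 0.02 for all genes.

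**Figure D2:**
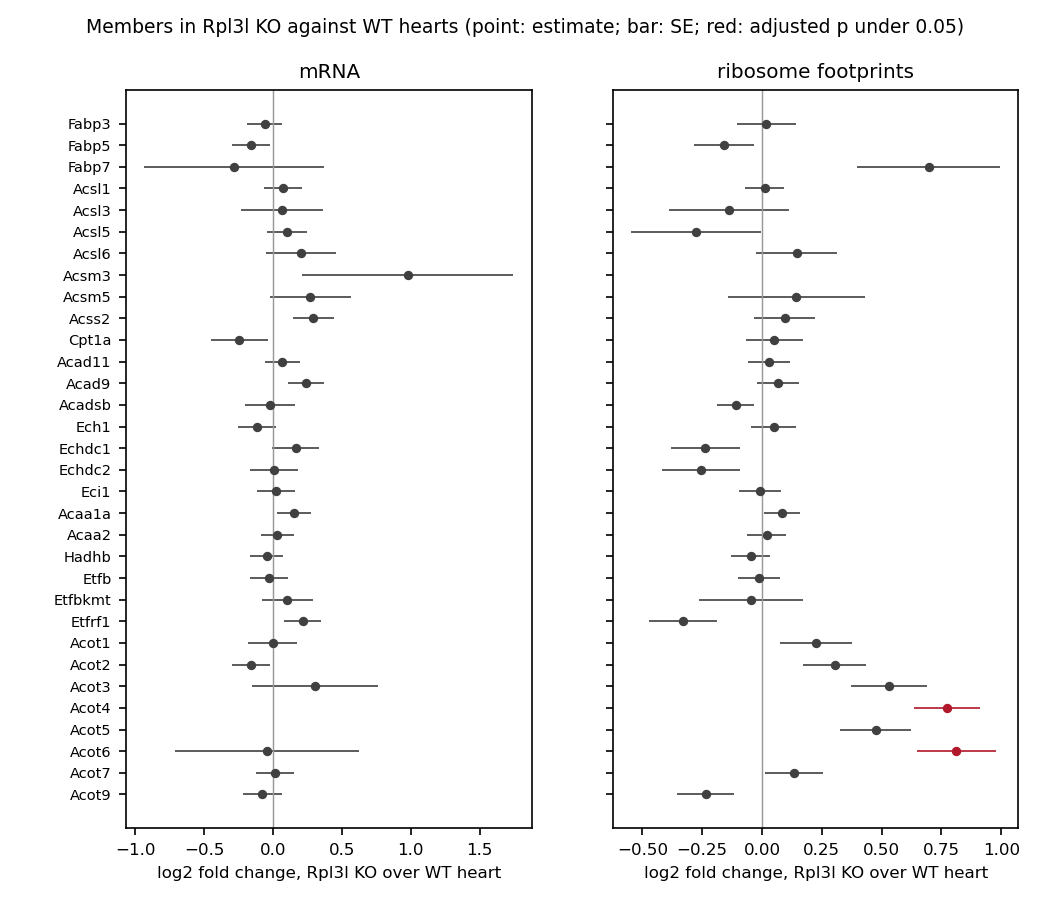
log2 fold change of each tested member in Rpl3l KO over WT hearts (4 and 4), with its SE, for mRNA on the left and ribosome footprints on the right. All mRNA points are black, and of the footprint points Acot4 and Acot6 are red (adjusted p under 0.05), with Acot3 and Acot5 next among the thioesterases.

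Acot4 footprints stood at 50.2, 58.2, 43.5 and 42.9 CPM in WT hearts and at 68.9, 82.3, 104 and 80.8 CPM in KO hearts. Every KO heart was above every WT heart, and KO heart 3 was highest. The log2 fold change was 0.77 (SE 0.14, adjusted p = 0.022). Acot6 footprints were at 35.0, 40.4, 30.4 and 29.1 CPM in WT hearts and at 45.1, 57.6, 79.8 and 57.3 CPM in KO hearts, in the same order (0.81, SE 0.16, adjusted p = 0.037).

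Acot3 and Acot5, which did not pass, were arranged alike. Acot3 was at 58.4, 67.9, 53.2 and 52.4 CPM and at 75.1, 71.2, 119 and 72.7 CPM (log2 fold change 0.53, SE 0.16, adjusted p = 0.12). Acot5 was at 67.5, 75.6, 67.1 and 58.2 CPM and at 80.8, 81.0, 129 and 85.1 CPM (0.48, SE 0.15, adjusted p = 0.13). Neither overlapped between genotypes. The share of all genes without overlap was not counted, and 17.0% of all genes had an unadjusted p under 0.05 in footprints (edgeR). Acot2, at 331, 377, 379 and 306 CPM and at 348, 386, 567 and 423 CPM (0.30, adjusted p = 0.26), and Acot1, at 220, 236, 231 and 186 CPM and at 210, 212, 364 and 240 CPM (0.23, adjusted p = 0.49), overlapped. In all 6 genes KO heart 3 had the most footprints.

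**Figure D3:**
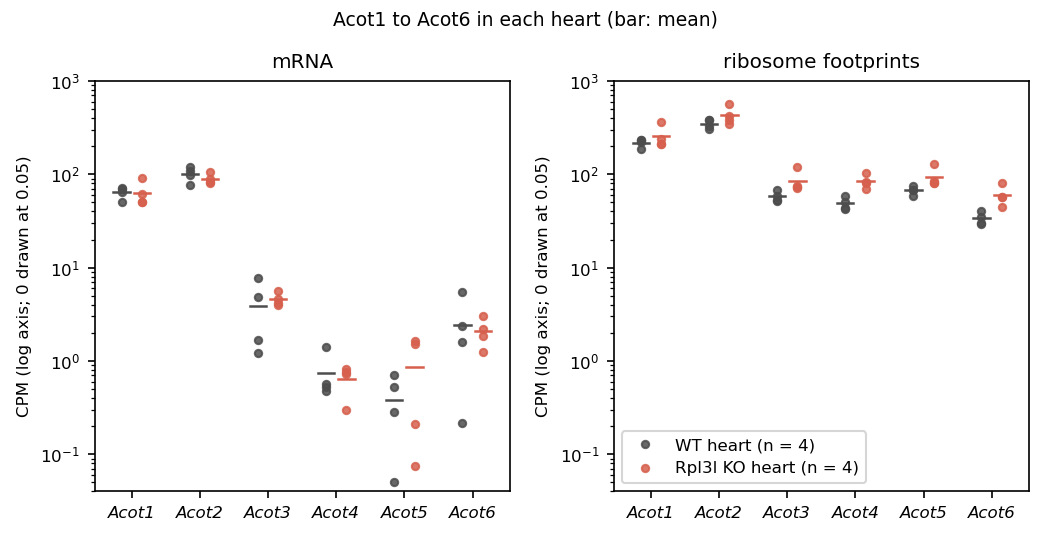
CPM (log axis) of Acot1 to Acot6 in each of 4 WT (grey) and 4 Rpl3l KO (red) hearts, mRNA on the left and footprints on the right, with a bar at the mean. Acot4, Acot5 and Acot6 hold few mRNA counts but footprints above 29 CPM in every heart, and the KO points of Acot3 to Acot6 lie above the WT points in footprints only.

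In mRNA, Acot4 and Acot5 had too few counts to be tested, and Acot3 and Acot6 were tested but not called. Whether the mRNA of Acot4 and Acot6 followed their footprints cannot be told from such low counts. Acot4 mRNA was at 0.57, 0.47, 0.53 and 1.42 CPM in WT hearts and at 0.30, 0.82, 0.76 and 0.72 CPM in KO hearts, with only 70 counts over the 8 hearts against 1111 footprints. Acot6 mRNA, at 5.44, 2.37, 1.59 and 0.21 CPM and at 1.86, 1.26, 2.18 and 3.06 CPM, had 172 counts against 781 footprints. Acot5 had 55 mRNA counts against 1363 footprints and Acot3 376 against 1200, whereas Acot1 had 5623 against 4063 and Acot2 8280 against 6646. The genes of low mRNA count thus held more footprints than mRNA counts, and 16.9 to 25.9% of the 28-base windows of Acot3 to Acot6 occur in Acot1 or Acot2. The part of shared reads in these footprint counts was not tested. The rise of Acot4 and of Acot6 was not called with 1 transcript per gene in the fit, nor without WT heart 3, WT heart 4 or KO heart 3 (Acot4 0.66 and Acot6 0.65 without the last). Without the 4 libraries that hold airway markers, WT 2, WT 4, KO 1 and KO 2, it was 0.97 (adjusted p = 0.11) for Acot4 and 1.06 (adjusted p = 0.14) for Acot6. The call on Acot6 was also lost without WT heart 1, KO heart 2 or KO heart 4. Over all 16 alternatives the adjusted p ran from 0.00064 to 0.11 for Acot4 and from 0.0024 to 0.14 for Acot6.

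Outside the cluster, Etfrf1, a regulator of the electron transfer flavoprotein, had footprints of 34.0, 31.9, 43.1 and 32.8 CPM in WT and 30.0, 23.9, 28.3 and 31.4 CPM in KO hearts, with no overlap (log2 fold change −0.33, SE 0.14, adjusted p = 0.26). Fabp7 stood at 2.74, 3.64, 5.91 and 5.82 CPM and at 6.22, 8.53, 7.08 and 6.16 CPM, from at most 20 counts a heart (0.70, SE 0.30, adjusted p = 0.26). Acaa1a, at 175, 171, 184 and 177 CPM and at 185, 186, 190 and 189 CPM, did not overlap either, for a log2 fold change of 0.08. Without the share of all genes that separate in this way, these separations cannot be set apart from the background. The abundant members stayed near no change, with Hadhb at 3706, 4181, 4226 and 4045 CPM in WT and 3911, 3503, 4252 and 3970 CPM in KO hearts (−0.05, 95% interval −0.21 to 0.11). For Acsl1 the interval ran from −0.15 to 0.17 and for Etfb from −0.19 to 0.16.

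TE in the heart was compared as the difference of the genotype effect between footprints and mRNA. Of 29 members tested, 0 passed in edgeR and 0 in DESeq2, as did 0% of all genes in edgeR, and 2 (6.90%) had an unadjusted p under 0.05, against 6.39% of all genes. These 2, a share near that of all genes, were Etfrf1, with a TE difference of −0.54 (SE 0.19, adjusted p = 0.55), and Acot2, with 0.46 (SE 0.21, adjusted p = 0.74). Etfrf1 mRNA had been at 34.9, 28.2, 30.4 and 29.6 CPM in WT and 35.0, 38.6, 32.6 and 36.7 CPM in KO hearts. Its mRNA lay mostly higher and its footprints lower in KO hearts, and Acot2 lay the other way, with an mRNA log2 fold change of −0.16. Echdc1 followed, at −0.40 (SE 0.22, adjusted p = 0.81). Acot4 and Acot5 were too low in mRNA to be tested for TE, and for Acot6 the difference was 0.56 with an SE of 0.61.

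Disomes mark places where a ribosome is caught behind another. Against WT hearts, 0 of 12 members tested differed in KO hearts in disomes, and 0 of 12 in disomes relative to footprints, by edgeR and by DESeq2, with 0 at an unadjusted p under 0.05 in each. Of all genes 0% passed in either comparison. Hadhb, with the most disomes, was at 7495, 10151, 10383 and 8096 CPM in WT and at 9205, 8917, 10419 and 7997 CPM in KO hearts. The genotypes overlapped throughout, and the log2 fold change was 0.02, with a 95% interval from −0.29 to 0.33. Acot1 disomes were at 197, 278, 352 and 318 CPM and at 265, 250, 858 and 408 CPM, from 12 to 47 counts a heart (0.60, SE 0.42, adjusted p = 0.94). KO heart 3 again stood out, and so it did for Acot2, at 534, 742, 1094 and 856 CPM and at 727, 687, 2136 and 688 CPM (0.37, SE 0.36, adjusted p = 0.94), which went to −0.21 without it. Acadsb, a short branched-chain dehydrogenase, had a log2 fold change of −0.37 (SE 0.38).

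**Figure D4:**
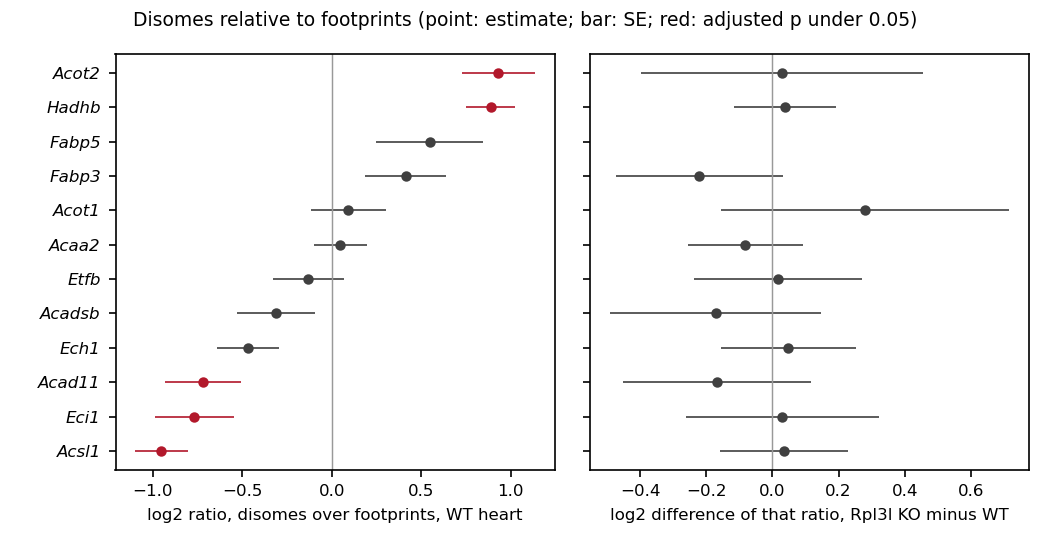
Left, log2 ratio of disomes to footprints in 4 WT hearts for the members tested. Right, the difference of that ratio between Rpl3l KO and WT hearts; points are estimates, bars SE and red points adjusted p under 0.05. Acot2 and Hadhb stand to the right and Acsl1, Eci1 and Acad11 to the left of 0 in WT hearts, and no difference between genotypes passed.

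Relative to footprints, disomes of the WT hearts were high on Hadhb and Acot2 and low on Acsl1, Eci1 and Acad11. Of 12 members tested, 2 were higher and 3 lower than the scale of all genes, against 22.6% and 21.5% of all genes and 44.2% in both directions, so that the members' share is near the background. The median was −0.04 for the members and 0.05 for all genes, and with library totals the latter was 0.27, with 3 members higher and 1 lower. Disome and footprint libraries were sized and made apart, and the part of the protocol in these ratios was not tested.

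Hadhb footprints were at 3706, 4181, 4226 and 4045 CPM beside the disomes given above, and the log2 ratio was 0.89 (SE 0.14, adjusted p = 0.0006). For Acot2 it was 0.93 (SE 0.20, adjusted p = 0.0046), from 32 to 118 disome counts a heart, which Acot2 may share with Acot1. Every WT heart had more CPM in disomes than in footprints for both genes. The CPM are scaled within each assay and the ratios by TMM over both assays, so that they need not match in size.

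Acsl1 disomes were at 773, 1136, 992 and 832 CPM and its footprints at 1396, 1439, 1556 and 1531 CPM (log2 ratio −0.95, SE 0.15, adjusted p = 0.0006). Eci1 disomes were at 239, 487, 464 and 611 CPM and its footprints at 587, 599, 573 and 601 CPM (−0.77, SE 0.22, adjusted p = 0.017). On these CPM, scaled within each assay, Eci1 was lower in disomes in 3 of the 4 hearts and level in WT heart 4. In the test, the TMM factors of WT heart 4 were 1.13 in disomes and 0.898 in footprints. Within each assay they were 1.00 and 1.01, so that the scale of the test puts its disomes lower relative to its footprints. Acad11, with 8 to 41 disome counts a heart, had a ratio of −0.72 (SE 0.21, adjusted p = 0.019). Hadhb, Acot2 and Acsl1 passed without any single heart. Eci1 did not without WT 2 or WT 4, nor Acad11 without WT 1, WT 2 or WT 4. With only the first of the 2 columns of each mouse, Hadhb (0.56, adjusted p = 0.073) and Acot2 (0.51, adjusted p = 0.16) did not pass, in ranges of 2.9e-10 to 0.17 and 9.1e-05 to 0.22 over all alternatives. With library totals Eci1 (−0.54) and Acad11 (−0.50) did not pass. Without the airway libraries, 2 hearts were left and no member passed.

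In C2C12 the question is what more RPL3 or RPL3L changes in cells that have little Rpl3l of their own. The 3 groups were fitted together, so that the comparisons share their libraries. Acsl6, a long-chain synthetase of brain and muscle, fell with RPL3 OE, and Acsm2, a medium-chain synthetase, was lower in RPL3L OE than in RPL3 OE, though the latter call rests on 1 library. Between RPL3L OE and Control, 2 of 25 members fell and 0 rose, against 4.71% and 5.01% of all genes and 9.72% in both directions. Between RPL3 OE and Control, 2 rose and 2 fell, against 8.94% and 8.31% and 17.2% in both. Between RPL3L OE and RPL3 OE, 1 was higher and 6 lower in RPL3L OE, against 13.3% and 14.4% and 27.6% in both. Counted in both directions, 2, 4 and 7 of the 25 members passed in these comparisons, so that the members' shares are near the background. The members' medians were −0.04, 0.06 and −0.11 on the log2 scale, and those of all genes lay within 0.01 of 0.

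**Figure D5:**
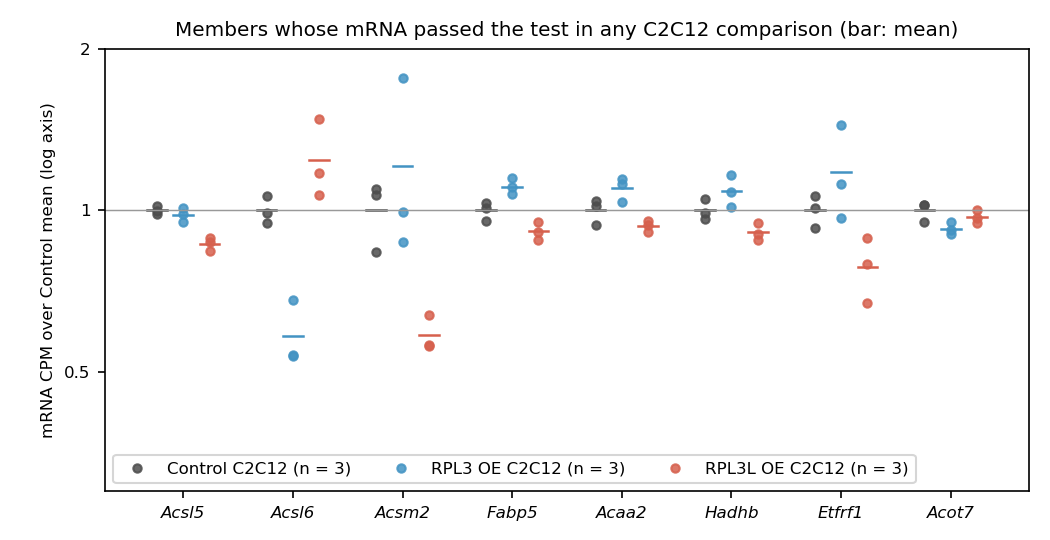
mRNA CPM over the Control mean (log axis) of the 8 members that passed in any C2C12 comparison, in 3 cultures each of Control (grey), RPL3 OE (blue) and RPL3L OE (red), with a bar at the mean. Acsl5 is lower in all RPL3L OE cultures, Acsl6 is lower in all RPL3 OE cultures, and Fabp5, Acaa2 and Hadhb lie lower in RPL3L OE than in RPL3 OE.

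Fabp5 mRNA was at 186, 200 and 197 CPM in Control, 223, 208 and 214 CPM in RPL3 OE and 178, 185 and 171 CPM in RPL3L OE. RPL3 OE cultures were all the highest and RPL3L OE cultures all the lowest of the 3 groups. The log2 fold change was 0.15 (SE 0.039, adjusted p = 0.0041) for RPL3 OE against Control, −0.13 (SE 0.04, adjusted p = 0.026) for RPL3L OE against Control, and −0.27 (SE 0.041, adjusted p = 2.3e-07) between the overexpressions. The fall in RPL3L OE against Control was not called in DESeq2 (adjusted p = 0.072), nor without Control 2, Control 3, RPL3L OE 1 or RPL3L OE 3 (range over all alternatives 0.0092 to 0.18). The rise with RPL3 OE was just short of a call without Control 1 or RPL3 OE 1 (range 0.0026 to 0.052).

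Among synthetases, Acsl5, the leading one of C2C12, was at 261, 264 and 270 CPM in Control, 252, 261 and 268 CPM in RPL3 OE and 232, 236 and 223 CPM in RPL3L OE. Only the RPL3L OE cultures stood apart, with log2 fold changes of −0.21 (SE 0.036, adjusted p = 2e-05) against Control and −0.18 (SE 0.038, adjusted p = 0.00014) against RPL3 OE. Acsl6 was at 8.83, 9.91 and 9.20 CPM, 5.01, 6.33 and 5.00 CPM, and 13.8, 9.93 and 10.95 CPM in the same order. It fell with RPL3 OE by 0.78 on the log2 scale (SE 0.16, adjusted p = 0.00015), and was higher in RPL3L OE than in RPL3 OE by 1.08 (SE 0.17, adjusted p = 4.2e-07). RPL3L OE against Control was not called (0.31, adjusted p = 0.16). Acsm2, at 3.91, 4.01 and 3.06 CPM, 6.46, 3.64 and 3.19 CPM, and 2.34, 2.05 and 2.05 CPM, was lower in RPL3L OE than in RPL3 OE by 1.00 (SE 0.28, adjusted p = 0.0047), a call lost without RPL3 OE 1 (adjusted p = 0.11, range over alternatives 0.0022 to 0.11).

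Acaa2 mRNA was at 90.9, 101 and 98.6 CPM in Control, 100, 108 and 111 CPM in RPL3 OE and 90.8, 88.1 and 92.5 CPM in RPL3L OE. The overexpressions did not overlap (log2 fold change −0.24, SE 0.052, adjusted p = 0.00031), and RPL3 OE rose against Control by 0.14 (SE 0.048, adjusted p = 0.034). Hadhb, at 43.5, 46.3 and 42.4 CPM, 47.7, 44.7 and 51.2 CPM, and 41.8, 39.8 and 38.9 CPM, was lower in RPL3L OE than in RPL3 OE (−0.26, SE 0.073, adjusted p = 0.0045), a call lost without RPL3 OE 3. Etfrf1 was lower as well (−0.59, SE 0.18, adjusted p = 0.009), at 7.25, 10.8 and 8.36 CPM in RPL3 OE against 6.64, 5.02 and 5.94 CPM in RPL3L OE, with Control between at 6.94, 7.94 and 7.55 CPM. This was lost without RPL3 OE 2 or RPL3L OE 2.

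Acot7, the leading thioesterase, was at 190, 177 and 190 CPM in Control and 177, 167 and 171 CPM in RPL3 OE, with a log2 fold change of −0.12 (SE 0.039, adjusted p = 0.032), RPL3 OE 1 and Control 2 being level. The calls on Acot7 and on the rise of Acaa2 were absent in DESeq2 (adjusted p = 0.073 and 0.089, in ranges of 0.0054 to 0.16 and 0.015 to 0.28 over all alternatives) and without Control 1, Control 3, RPL3 OE 2 or RPL3 OE 3. Cpt1a was not called in any of the 3 comparisons, and neither were the 3 dehydrogenases, the 4 hydratases and isomerases, or Etfb.

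In TE, 0 of 23 members passed in each C2C12 comparison by edgeR and by DESeq2. All genes passed at 2.22% for RPL3L OE against Control, 0.0925% for RPL3 OE against Control and 0.278% for RPL3L OE against RPL3 OE. At an unadjusted p under 0.05 there were 6, 0 and 1 members (26.1%, 0% and 4.35%), against 16.1%, 8.38% and 9.27% of all genes. The lowest p with RPL3L OE was that of Etfrf1, at 0.78 (SE 0.29, adjusted p = 0.15) against Control and 0.68 (SE 0.28, adjusted p = 0.43) against RPL3 OE. Its footprints stood at 4.02, 6.07 and 5.78 CPM in Control, 6.27, 6.70 and 6.69 CPM in RPL3 OE and 7.02, 7.73 and 6.26 CPM in RPL3L OE, all from 17 to 42 counts. The footprints of RPL3L OE were above those of every Control culture, while its mRNA had been lowest there. Acot9 (0.19, SE 0.075, adjusted p = 0.19) and Acsl3 (0.22, SE 0.088, adjusted p = 0.19) followed for RPL3L OE against Control, and Acsl1 (0.34, SE 0.19, adjusted p = 0.68) had the lowest p with RPL3 OE.

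Other genes of lipid uptake, activation, storage and control were read from a list of 68, of which 33 were in the table. In hearts 0 of 32 tested differed in mRNA by edgeR, against 0.0159% of all genes, with 0 at an unadjusted p under 0.05, against 2.30%. In footprints 1 of 31 (3.23%) rose, against 0.465% of all genes, and 4 (12.9%) had an unadjusted p under 0.05, against 17.0%. The gene that rose was Pnpla2, the lipase that starts the breakdown of stored triglyceride, at 443, 459, 476 and 468 CPM in WT and 593, 635, 614 and 564 CPM in KO hearts. The genotypes were well apart (log2 fold change 0.38, SE 0.075, adjusted p = 0.032), while its mRNA log2 fold change was 0.13 (SE 0.12). Alternatives were recorded for members only, so whether the calls on genes of this list depend on the processing was not tested. In TE of the heart 0 of 31 passed, with 3 (9.68%) at an unadjusted p under 0.05, against 6.39% of all genes.

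Between WT heart and Control C2C12 mRNA, 24 of 32 (75.0%) were higher in the heart and 6 (18.8%) lower, against 41.2% and 41% of all genes, with a median of 2.82 against −0.025. Slc25a20, the carnitine-acylcarnitine carrier of the inner membrane, was higher by 5.17, and Lpl, which frees fatty acids from lipoproteins, by 10.42. Scd2, a desaturase of fatty acid synthesis, was lower by −4.78. In C2C12 mRNA, 1 of 26 rose and 4 fell with RPL3L OE against Control, 1 rose and 3 fell with RPL3 OE, and 2 were higher and 5 lower in RPL3L OE than in RPL3 OE. These are 3.85% and 15.4%, 3.85% and 11.5%, and 7.69% and 19.2% of the list, against 5.01% and 4.71%, 8.94% and 8.31%, and 13.3% and 14.4% of all genes. Pparg, a lipid-sensing nuclear receptor, was at 43.7, 47.6 and 46.6 CPM in Control, 44.6, 49.6 and 42.1 CPM in RPL3 OE and 37.1, 37.0 and 32.8 CPM in RPL3L OE. Only RPL3L OE was lower, by −0.37 (SE 0.071, adjusted p = 9.4e-05) against Control and −0.35 (SE 0.077, adjusted p = 0.00029) against RPL3 OE.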

How the data were processed

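RNA-seq and Ribo-seq of 4 WT and 4 Rpl3l KO hearts and of 3 cultures of each C2C12 group, and Disome-seq of the hearts, were used. The authors deposited raw read counts per transcript. Per the labels, reads were trimmed with cutadapt, aligned with STAR to GRCm38.p6 and counted with featureCounts, with multiple mappings allowed according to the methods. Tool versions, and whether the counting used strand, are not given in the sources used here. The table holds 47754 lines for 23877 transcripts, each listed in duplicate, and 1 of 2 identical lines was kept. Of these, 23662 matched GENCODE M21. All 50 sample columns were mapped and 0 were left out. The 2 disome columns of a mouse were summed.

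Counts were tested in R 4.3.3 by edgeR 4.0.16 (quasi-likelihood) over all transcripts that averaged 10 or more counts in every assay of a fit, with TMM within an assay, or over both assays for WT disomes against footprints. Benjamini-Hochberg adjustment ran over all transcripts, with a threshold of 0.05. Background shares count 1 transcript per gene. TE is the interaction of group and assay. CPM use TMM-scaled library sizes, and floors are 3 counts per library and cover counting error only. The precision of a value depends on the totals given with the results and is lowest in Disome-seq. DESeq2 1.42.0 was an alternative. The code was tested on simulated counts. Alternatives were other filters, library totals, the choice of transcript, the replicate block, each disome column alone, leaving out each replicate, and leaving out heart libraries with over 50 CPM of airway markers. C2C12 replicates are not stated to be separate infections, so p-values there measure the spread between these cultures, which may be technical.

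The members and lists were chosen with earlier results of these data known. Named with values were the members with adjusted p under 0.05, up to 10 with the largest change in a direction, or the 3 with the smallest p where none passed, plus role leaders and others chosen after their values were seen. The m6A table was not used. No replicate pairs differed by less than sampling noise.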

Additional observations from a re-analysis of the deposited data

Results flagged for a closer look

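Of 122 groups of 4 hearts looked at in mRNA and footprints of members, 10 held a heart whose gap to the others was above Dixon's 95% critical value. Chance flags about 1 in 20 groups, and the causes were not tested.

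In footprints, KO heart 3 stood apart in 3 thioesterases, with Acot3 at 119 CPM (others 71.2 to 75.1), Acot5 at 129 CPM (others 80.8 to 85.1) and Acot9 at 40.5 CPM (others 34.5 to 35.4). WT heart 2 was high in Acaa2 at 1975 CPM (others 1798 to 1825), and WT heart 4 was low in Cpt1a at 92.6 CPM (others 126 to 131).

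In mRNA, KO heart 2 was high in Fabp3 at 6966 CPM (others 4955 to 5286). KO heart 1, the heart with the second highest airway markers, was high in Acad9 at 47.8 CPM (others 42.3 to 43.0), in Acot9 at 30.5 CPM (others 28.05 to 28.4) and in Fabp7 at 2.46 CPM (others 0.63 to 0.819). WT heart 3 was low in Acot7 at 76.3 CPM (others 99.4 to 104).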

How the results depend on the processing

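Over 14 comparisons, 207 of 228 alternative counts of members called stayed within 1.5 times the reported one. Where none had been called, an alternative of 0 is counted among the 207. Of 1097 alternative values of the 72 named results, 1030 kept their direction and side of the threshold, 64 kept the direction but no longer passed, and 3 reversed. For the 51 named results that had passed, 684 of 748 alternative values still passed, and all 64 losses were among these. In heart footprints the count of 2 went to 0 with 1 transcript per gene in the fit and to 0 without the heart libraries that hold airway markers, an alternative chosen after seeing the data, and lay between 0 and 2 when each heart was left out. In WT disomes relative to footprints the count of 5 went to 3 with only column 1 of each mouse, to 0 without the airway libraries, which leaves 2 hearts, and to between 3 and 6 when each heart was left out. In C2C12 mRNA, DESeq2 gave 1 for RPL3L OE against Control and 2 for RPL3 OE against Control, and leaving out each culture gave 1 to 3 and 1 to 4. The reversals, none of which had passed, were Acot2 in disomes without KO 3 (−0.21 to 0.66 when each heart was left out) and, in disomes relative to footprints, Fabp3 (−0.26 to 0.067) and Acad11 (−0.35 to 0.21), both without WT 3. Where an alternative leaves fewer samples the test has less power, and otherwise the cause was not tested.

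Same-numbered samples of different groups did not deviate together throughout. Correlations ran from −0.21 to −0.03 in heart RNA-seq, −0.21 to 0.34 in heart Ribo-seq, −0.34 to 0.19 in Disome-seq and −0.06 to 0.12 in C2C12. In heart Ribo-seq, WT and KO hearts of number 2 (0.34) and number 3 (0.24) did deviate together, and those of number 1 (−0.21) and number 4 (−0.10) did not. As the sign varied, the numbers were not taken as pairs. With the replicate number as a block the calls were 2 in heart footprints, 6 in WT disomes (Ech1 added), 2, 4 and 7 in C2C12 mRNA, and 0 where none had passed. In TE this block ties same-numbered mRNA and footprint libraries of a group, although the airway markers of KO hearts 2 and 3 go against each other there. Depth limits Disome-seq most, where 12 of 38 members could be tested.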
